A study of Mus musculus with 12 samples.

Results

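The respiratory chain genes described here were the protein-coding genes named as subunits of complexes I to V in 3 tables of normalised gene counts from mouse hindlimb fibroblasts. The rule took every gene whose symbol began with Nduf, Uqcr, Cox4 to Cox8 or Atp5, the genes Sdha, Sdhb, Sdhc and Sdhd, and the genes carried by mitochondrial DNA, whose symbols begin with mt-. It found 106 genes in each table, 93 nuclear and 13 mitochondrial, of 27319 genes listed in the table that sets aldosterone against vehicle. The table with both drugs lists 27631 genes, and the table without aldosterone 27598. Of the 106 members, 103 had a mean normalised count of at least 10 in each table. The others were Cox7a1, Cox8b and mt-Atp8, which are kept in every count below. The rule also took Cox5b-ps, which the tables list as protein-coding although its description calls it a pseudogene.

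The fibroblasts came from hindlimbs of wild-type C57/BL10 mice at postnatal day 3. Cultures were treated for 48 hours with 1 µM aldosterone, 1 µM spironolactone or vehicle, and all groups received the DMSO solvent after culture in charcoal-stripped serum. There were 4 libraries per treatment, 12 in all, from 2 mice with 2 replicate plates per mouse and treatment, so each p-value below also rests on plates that share a mouse. The labels number the libraries of a treatment by a sample number and a replicate number, each 1 or 2, and which of these numbers is the mouse is not given in them. Values for single libraries are given in the order sample number 1, replicates 1 and 2, then sample number 2, replicates 1 and 2.

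The respiratory chain sits in the inner mitochondrial membrane. Complexes I and II feed electrons from NADH and succinate to ubiquinone, complex III passes them to cytochrome c, complex IV hands them to oxygen, and complex V, the ATP synthase, uses the proton gradient that complexes I, III and IV build. Complex II is built from nuclear genes alone, while the other complexes combine nuclear subunits with a few core subunits translated inside the mitochondrion. Aldosterone is the natural agonist of the mineralocorticoid receptor and spironolactone is an antagonist of that receptor, so the design asks which transcripts respond to the agonist and whether the antagonist alone moves them.

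Nuclear genes of the chain are known for promoters with sites for nuclear respiratory factor 1 (NRF1), for ETS-family factors such as GA-binding protein, and for YY1. RefSeq promoters of 300 bases, 250 before and 50 after the gene start on build GRCm38.p6, were matched by symbol for 76 of the 93 nuclear members. The NRF1 word GCGCANGCG, searched on both strands like the others, was in the promoters of 22 of these 76 genes, 28.9%, against 7.03% of 27025 genes in the promoter table and 9.63% of its 17492 protein-coding genes. The ETS word CCGGAAG was in 19 members, 25% against 9.93% and 12.9%, and the YY1 word AAGATGGC in 11, 14.5% against 3.19% and 3.57%. The GC box GGGCGG was in 34 members, 44.7% against 38.2% of all genes and 49.2% of protein-coding genes, and the TATA box TATAAA in 7, 9.21% against 15.7% and 14.8%. These words are letter matches, not measured binding. Of the 15 members that rose with aldosterone (below), 10 had an entry. Among those 10 the NRF1 word was in 1, the ETS word in 2 and the YY1 word in 1.

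The 250 bases before the gene start are printed for 3 of those 10 genes, to show a promoter with an ETS word alone, a promoter with NRF1, ETS and GC words together, and a promoter with a GC box only. Capitals mark the words, and the strand given is that of the gene. In the Uqcrh promoter (chr4:116075071-116075320, minus strand) the ETS word lies 10 to 4 bases before the start. In the Cox6a1 promoter (chr5:115348959-115349208, minus strand) the ETS word lies 16 to 10 bases before the start, 2 NRF1 words overlap at 162 to 153 bases before it, and a further NRF1 word lies at 117 to 109. The Ndufv3 promoter (chr17:31519865-31520114, plus strand) has a GC box 139 to 134 bases before the start. The ACGTG core of hypoxia response elements was in 19 of the 76 members, 25% against 21.8% of all genes and 23.2% of protein-coding genes. Cox4i2 and Ndufa4l2, the members with the largest changes that passed, have no entry in the table.
Uqcrh: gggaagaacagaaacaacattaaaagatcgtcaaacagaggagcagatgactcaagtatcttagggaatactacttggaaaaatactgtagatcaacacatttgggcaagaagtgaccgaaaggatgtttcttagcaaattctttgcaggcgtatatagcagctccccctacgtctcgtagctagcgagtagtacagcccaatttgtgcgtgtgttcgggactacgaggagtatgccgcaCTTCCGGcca
Cox6a1: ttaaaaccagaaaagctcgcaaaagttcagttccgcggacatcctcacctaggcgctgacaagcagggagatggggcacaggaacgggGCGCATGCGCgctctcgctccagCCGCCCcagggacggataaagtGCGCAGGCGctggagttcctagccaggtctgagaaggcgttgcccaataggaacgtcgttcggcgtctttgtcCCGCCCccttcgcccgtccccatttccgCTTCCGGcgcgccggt
Ndufv3: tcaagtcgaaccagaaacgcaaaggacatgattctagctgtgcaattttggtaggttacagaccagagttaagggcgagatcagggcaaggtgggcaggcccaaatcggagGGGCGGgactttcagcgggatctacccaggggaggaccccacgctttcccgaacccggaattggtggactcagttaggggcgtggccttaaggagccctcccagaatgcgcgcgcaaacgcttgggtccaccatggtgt

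Libraries held between 19136923 and 30219185 reads on genes. Fkbp5, Tsc22d3 and Per1, textbook steroid-receptor targets, rose with aldosterone by 4.26, 2.69 and 1.83 on the log2 scale. Of 27319 genes, limma called 1553 higher (5.68%) and 1294 lower (4.74%) with aldosterone than with vehicle, and scaling by total reads turned this to 1288 and 1691. Fibroblast markers were high, with vehicle means of 570625 normalised counts for Col1a1 and 135942 for Vim. The 8 listed fibroblast markers summed to 1151000 to 1246000 normalised counts per library with vehicle and 998000 to 1113000 with aldosterone, where Pdgfra rose by 0.91 (adjusted p = 2.93e-08), Vim rose by 0.48 (0.000479) and Col3a1 fell by 0.43 (0.000442). The 7 listed myogenic markers summed to 551 to 805 normalised counts per library with vehicle and 233 to 466 with aldosterone, where Acta1 fell by 1.26 (adjusted p = 0.000994) and Pax7, which defines muscle stem cells, was at 0. The 4 endothelial markers summed to 469.8 to 529.9 and 672 to 752, and 1 of them, Kdr, rose by 1.88 (0.00183), while Pecam1, which defines endothelial cells, had means of 2.85 with aldosterone and 6.57 with vehicle, without overlap (-0.95, 0.253). The 5 listed macrophage markers summed to 201 to 293 and 206 to 245, with Ptprc, which defines leukocytes, at 0 in the aldosterone libraries, and the 3 Schwann cell markers to 35.2 to 94.0 and 58.1 to 85.8, none of which passed. The part of other cell types in the results below was not tested. Since these are bulk libraries, fewer cells of a type and less RNA per cell cannot be told apart.

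Aldosterone against vehicle asks which members the agonist moved. With aldosterone 15 of the 106 members were higher (14.2%, against 5.68% of all genes) and 0 were lower (against 4.74%), at a limma adjusted p of at most 0.05 over all genes. Since 103 members had a mean of at least 10, the 15245 genes with such a mean are a closer background. Of these 1471 were higher (9.65%) and 1233 lower. Without adjustment 39 members were higher and 0 lower at limma p below 0.05, and neither DESeq2 nor edgeR called a member lower. Over all 27319 genes the unadjusted counts were 2895 and 2810, and over the 15245 with a mean of at least 10 they were 2532 and 2383. All 15 were nuclear genes: 7 of complex I, 1 of complex III and 7 of complex IV. The changes were small, and 0 members also reached the log2 fold change of 1 that the study's own rule asks for, which 2.06% of all genes did in this table. The groups did not overlap, with every aldosterone library above every vehicle library, in 21 members, against 7.55% of all genes, and in the opposite direction in 0, against 6.9%. Of 93 nuclear members 86 had a fold change above 0, with a median of 0.16 on the log2 scale (1.12-fold), beside a median of -0.0064 over all genes.

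Libraries with the same sample number deviated together, so the fit with sample number as a block is given where it changes a result. With the block 37 members were higher (against 8.68% of all genes) and 0 lower (against 8.02%). Of the 15245 genes with a mean of at least 10, 2256 were higher and 2085 lower with the block. When the libraries of each sample number were averaged, leaving 2 values per group, 0 members were called in either direction, of 508 and 293 genes called higher and lower in that fit. Leaving out any single library gave between 4 and 13 members higher. It was 4 without aldosterone library 1_2, 5 without 2_1 or 2_2 of the same group, 9 without vehicle library 1_1, and 6 without each of the other vehicle libraries. The share of all genes called in these fits is not given here, so these counts are not set against a background. Cox4i2, Ndufa4l2 and Ndufv3 were among the members called in all 8 of these fits.

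**Figure D1:**
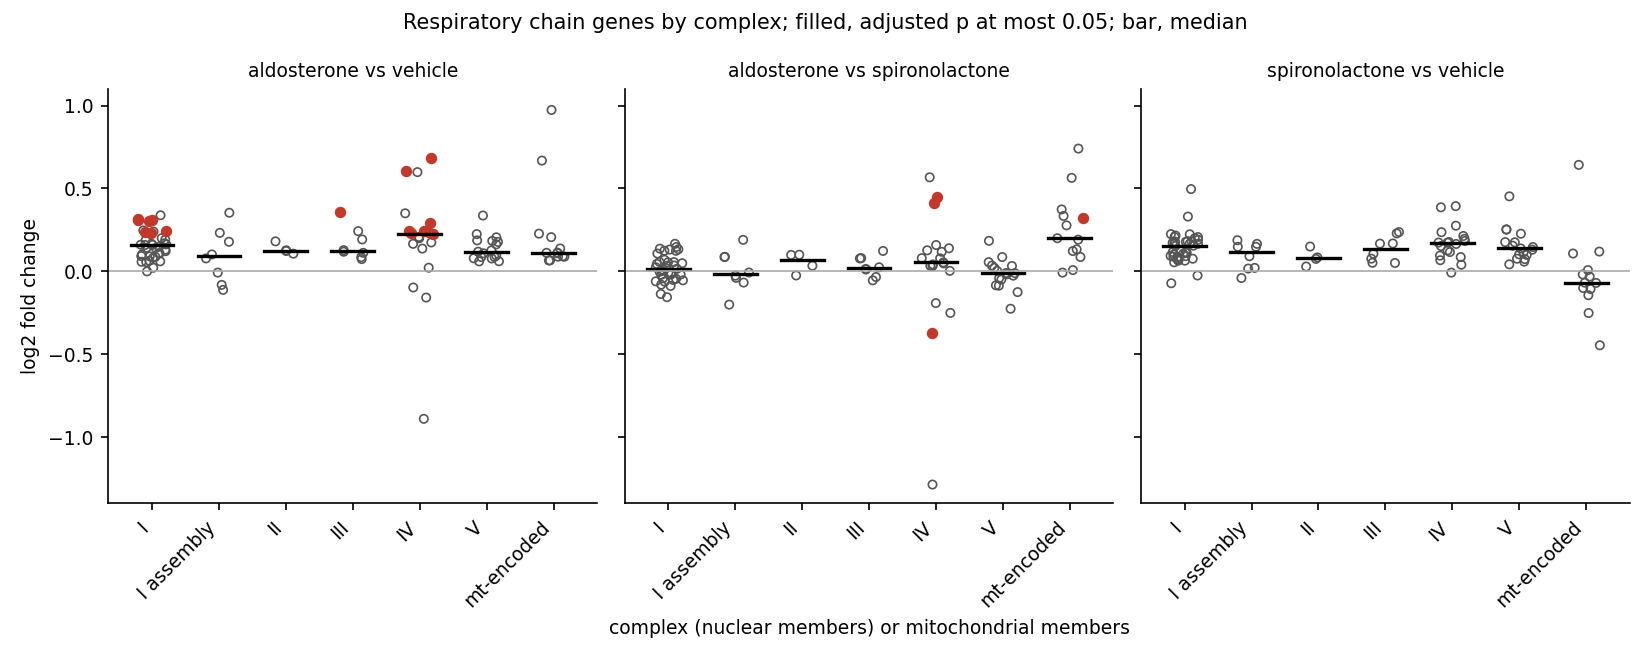
Log2 fold change (vertical axis) of each respiratory chain gene by complex for the nuclear members and together for the mitochondrial members, in the 3 comparisons. Filled points passed an adjusted p of 0.05 and bars are medians. With aldosterone against vehicle 15 nuclear members passed, in spironolactone against vehicle none did, and the mitochondrial median was 0.11 in the former and -0.069 in the latter.

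Of the members that passed, Cox4i2 had the largest change (ENSMUSG00000009876, chromosome 2, 152596093 to 152606957, plus strand, coordinates as in the tables). It encodes the isoform of cytochrome oxidase subunit 4 that is known as the hypoxia-inducible form. Its normalised counts were 319, 355, 289 and 250.4 with aldosterone and 227, 182, 178 and 165 with vehicle. Every aldosterone library lay above every vehicle library, and both groups were higher in sample number 1 than in sample number 2. The means were 303 ± 44.3 and 188 ± 27.0 (SD, n = 4), a log2 fold change of 0.68 (SE 0.123, adjusted p = 0.00131, limma), or 1.61-fold. Against spironolactone, whose libraries held 219, 279, 215 and 200 in the table of that comparison, aldosterone libraries held 329, 364, 297 and 257. The highest spironolactone library lay above the lowest aldosterone library, and the fold change was 0.45 (SE 0.122, adjusted p = 0.0265). It kept its direction, with values from 0.37 to 0.55, but lost the call when any library other than spironolactone 1_2 was left out.

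Ndufa4l2 (ENSMUSG00000040280, chromosome 10, 127350836 to 127353023, plus strand) encodes a paralogue of Ndufa4 that is known as a HIF target and dampens complex I activity in hypoxia. Its normalised counts were 385, 449, 428 and 399 with aldosterone and 315, 295, 264 and 224 with vehicle, again without overlap. The log2 fold change was 0.60 (SE 0.104, adjusted p = 0.000868), or 1.52-fold. Against spironolactone (291, 342, 335 and 317) aldosterone libraries held 397, 461, 440.0 and 409.7 in their shared table. All 4 were higher, by 0.41 (SE 0.0847, adjusted p = 0.00366). The gene's span shares 32 bases with the opposite-strand gene Shmt2, which did not pass the test (-0.13, adjusted p = 0.289), and the strand setting of the read counting is not given in the sources used here.

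The common paralogues of this pair were far more abundant per transcript length. In RPKM, reads scaled to transcript length and library size, vehicle libraries had 139.6 ± 10.8 of Cox4i1 and 49.6 ± 4.27 of Ndufa4, n = 4 each. Cox4i1, the ubiquitous isoform of subunit 4, also rose, by 0.29 (SE 0.0673, adjusted p = 0.0095), with 5703, 6459, 6068 and 6688 normalised counts with aldosterone against 5334, 5049.7, 5484 and 4545. Ndufa4, now counted as a subunit of complex IV, had a fold change of 0.14 that did not pass (adjusted p = 0.308). Cox4i2 made up 9.91, 9.745, 8.57 and 6.86% of the RPKM of the subunit 4 pair with aldosterone, 7.74, 6.64, 6.01 and 6.68% with vehicle, and 7.24, 7.75, 6.56 and 6.60% with spironolactone. Ndufa4l2 made up 22.9, 24.0, 24.0 and 20.5% of its pair with aldosterone, 19.98, 18.2, 15.9 and 16.5% with vehicle, and 17.7, 18.6, 19.2 and 19.4% with spironolactone. The Ndufa4l2 share did not overlap between aldosterone and either other group, while the Cox4i2 share overlapped with both.

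These shares were compared by 6 two-sided exact permutation tests, where the smallest p that 4 against 4 libraries allow is 0.0286. Only these pairs were tested, and they hold the called members with the largest changes in the same libraries. The adjustment over 6 tests does not cover that choice, and the permutation treats plates that share a mouse as independent. The p-values therefore describe the shares and are no separate support. The Ndufa4l2 share was 5.18 percentage points higher with aldosterone than with vehicle and 4.09 higher than with spironolactone, each at an exact p of 0.0286 and an adjusted p of 0.0857, the smallest these exact tests gave. For the Cox4i2 share the differences were 2.01 and 1.73 points (exact p = 0.0571 and 0.0857, adjusted p = 0.114 and 0.129). Spironolactone and vehicle differed by 0.276 points for Cox4i2 (exact p = 0.657) and 1.09 for Ndufa4l2 (exact p = 0.343). None of the 6 passed an adjusted p of 0.05.

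**Figure D2:**
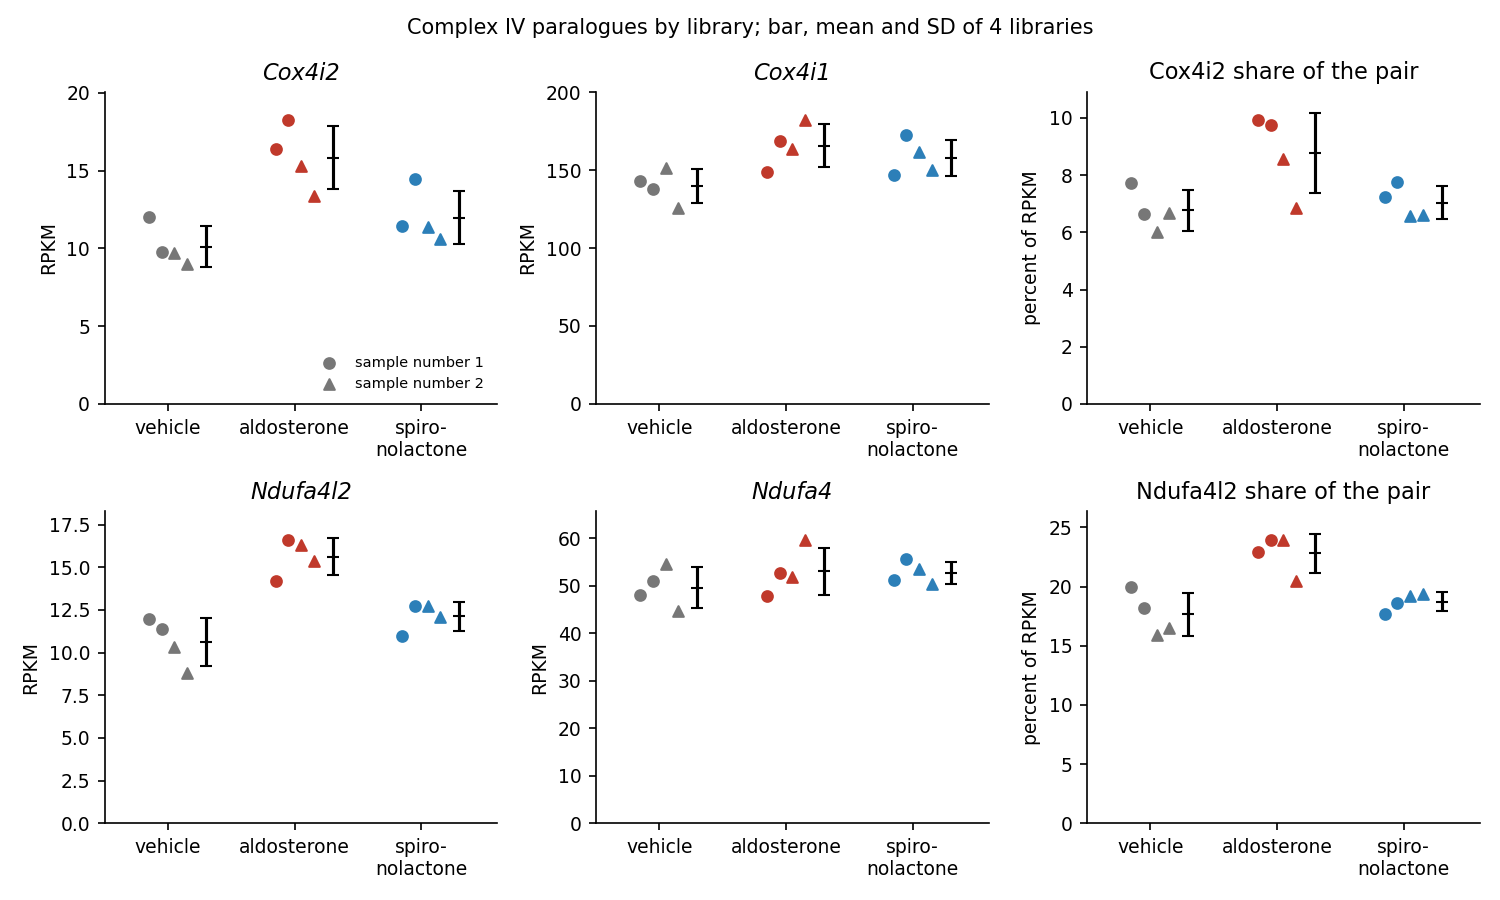
RPKM of Cox4i2, Cox4i1, Ndufa4l2 and Ndufa4 in each library, and the share of the scarcer paralogue in its pair (percent), by treatment, with circles and triangles for sample numbers 1 and 2 and bars for the mean and SD of 4 libraries. Ndufa4l2 made up 20.5 to 24.0% of its pair with aldosterone and 15.9 to 19.98% with vehicle.

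Among the other tissue-restricted isoforms of complex IV none passed with aldosterone against vehicle. Cox6a2 and Cox7a1, known as heart and skeletal muscle isoforms, had fold changes of -0.16 (adjusted p = 0.618) and -0.89 (0.508), and Cox6b2, known from testis, of -0.097 (0.702). Cox7a1 was near the lower end of counting, with 0, 0.963, 7.37 and 4.71 normalised counts with aldosterone and 7.55, 7.81, 3.66 and 2.15 with vehicle. Cox8b, the muscle form of subunit 8, was at 0 in 2 aldosterone and 3 vehicle libraries and under 3 in the rest. Their common counterparts Cox6a1, Cox6b1, Cox7a2 and Cox8a had fold changes of 0.24 (adjusted p = 0.0263), 0.23 (0.0981), 0.022 (0.925) and 0.17 (0.0706). Only Cox6a1 passed, a call that was lost after the length correction described below (0.13, adjusted p = 0.149), and with the block Cox6b1 (0.0089) and Cox8a (0.00749) did as well.

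Of the 19 nuclear members of complex IV, 7 rose, a larger share (36.8%) than the 5.68% of all genes, with a median of 0.22 (1.17-fold). With the block 12 rose, against 8.68% of all genes. Besides Cox4i2, Ndufa4l2, Cox4i1 and Cox6a1, the 7 that rose without the block were Cox7b (0.24, adjusted p = 0.0151), Cox6c (0.23, 0.0406) and Cox7a2l (0.22, 0.0252). Cox7b and Cox6c are structural subunits and Cox7a2l is known as a supercomplex assembly factor. Cox7a2l held 3399, 3826, 3632 and 3753 normalised counts with aldosterone against 3351, 3084, 3225 and 2859 with vehicle, so its groups did not overlap, although the closest libraries lay near each other. Reads of Cox7a2l are uncertain in origin, since 93.6% of its transcript matches another locus at 97% identity or more. For Cox7b this was 46% of the transcript. The spans of Cox6c and Cox4i1 share 5344 and 352 bases with the opposite-strand genes Vps13b and Emc8. Neither of those passed the limma test (-0.012, adjusted p = 0.949, and -0.061, 0.665).

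Complex I had 37 nuclear structural members, of which 36 were above 0 and 7 rose (18.9%, against 5.68% of all genes), with a median of 0.16. With the block 11 rose, against 8.68% of all genes. Ndufv3 (ENSMUSG00000024038, chromosome 17, 31739089 to 31750305, plus strand), a subunit of the NADH-oxidising module, had 989, 1087, 1094 and 1151 normalised counts with aldosterone and 885, 882, 820.1 and 881 with vehicle. The vehicle libraries were close together and all below the lowest aldosterone library, with a log2 fold change of 0.32 (SE 0.0641, adjusted p = 0.00346).

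Others of complex I that rose were Ndufa7 (0.31, adjusted p = 0.0198), Ndufa1 (0.31, 0.0366), Ndufb3 (0.30, 0.0364), Ndufs4 (0.25, 0.0263) and Ndufb11 (0.23, 0.0463), all of them accessory subunits. Of the Ndufb11 transcript 64.1% matches another locus. Ndufs4 held 775, 801, 842 and 849 normalised counts against 729, 721, 659 and 646, without overlap. Ndufb1 had as large a fold change (0.34) but more spread between libraries (adjusted p = 0.0664, and 0.00956 with the block). At the lower end stood Ndufs1, the largest core subunit (0.022, adjusted p = 0.871), and the acyl carrier protein gene Ndufab1 (-0.0001, 0.999). The 8 assembly factors named Ndufaf, which help to build complex I and are not part of it, were divided, with 5 above and 3 below 0, a median of 0.09 and none that passed. Of these Ndufaf5 had the largest value, 0.35 (adjusted p = 0.0826, and 0.0102 with the block).

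Complex II, the succinate dehydrogenase of the citric acid cycle, had its 4 genes above 0 and none that passed. Sdha, the flavoprotein, had 0.13 (adjusted p = 0.162, and 0.0351 with the block), Sdhb, the iron-sulphur subunit, 0.12 (0.354), Sdhc 0.11 (0.326) and Sdhd 0.18 (0.155, and 0.0293 with the block), the last pair being the membrane anchors.

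In complex III all 8 nuclear members were above 0, with a median of 0.12, and 1 rose (against 5.68% of all genes), or 4 with the block (against 8.68%). This was Uqcrh, the hinge protein beside cytochrome c1 (ENSMUSG00000063882, chromosome 4, 115924162 to 115932268, minus strand), whose promoter is printed above. It had 1566, 1654, 1649.9 and 1882 normalised counts with aldosterone and 1441, 1306, 1367 and 1159 with vehicle. The groups did not overlap, and the log2 fold change was 0.36 (SE 0.0744, adjusted p = 0.00421), though leaving out a library raised this to as much as 0.064. Its span shares 297 bases with the opposite-strand gene Gm12854, which rose by 0.54 (adjusted p = 0.00257). Uqcr11, a small subunit, had 0.24 (adjusted p = 0.219, and 0.0436 with the block), and the core gene Uqcrc2 had 0.074 (0.536).

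In complex V all 17 members were above 0, with a median of 0.12, but none passed, and 4 did with the block (against 8.68% of all genes). The catalytic beta and alpha subunit genes Atp5b and Atp5a1, among the most abundant members at 166 ± 9.35 and 165 ± 5.67 RPKM in vehicle libraries, had 0.061 (adjusted p = 0.661) and 0.078 (0.467). The membrane subunit gene Atp5l had the largest value, 0.34 (adjusted p = 0.0586, and 0.00367 with the block), and 92.6% of its transcript matches other loci. Atp5d, of the central stalk, had 0.18 (0.109, and 0.00792 with the block). The 3 genes for the c-ring subunit, Atp5g1, Atp5g2 and Atp5g3, encode the same mature protein and had 0.060, 0.087 and 0.12, none of which passed. Reads of Atp5g2 are uncertain in origin, since 100% of its transcript matches other loci, and 27.9% of that of Atp5g1 does.

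Levels per length ordered the members as follows. In vehicle libraries the mitochondrial genes mt-Co1 (4460 ± 159 RPKM), mt-Cytb (2174 ± 39.7) and mt-Nd1 (1584 ± 71.2) led, ahead of the highest nuclear member, Cox6a1 (289 ± 22.5). Cox8a (201 ± 12.3) followed, then Atp5b and Atp5a1, which did not differ beyond their spread. The median over the nuclear members of a complex was 23.2 RPKM in complex I, 38.1 in complex II, 46.2 in complex III, 32.9 in complex IV and 31.6 in complex V, and 5.31 over the complex I assembly factors. The most abundant members were Ndufa2 (99.1) in complex I, Sdhd (57.3) in complex II and Uqcr10 (78.0) in complex III.

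The 13 mitochondrial members fell into separate ranges of level. mt-Co1, mt-Cytb, mt-Nd1, mt-Nd5, mt-Nd6, mt-Nd2 and mt-Nd4 lay between 708 and 4460 RPKM in vehicle libraries, while mt-Co2, mt-Atp6, mt-Co3, mt-Nd4l, mt-Nd3 and mt-Atp8 lay between 0.864 and 36.6. When their sequences were searched against the nuclear genome (build NCBIM37), the 6 genes of the low range were covered over at least 99% of their length by 1 nuclear locus, with an identity that reached 100%. Among the 7 of the high range mt-Cytb, mt-Nd1, mt-Nd5 and mt-Nd6 had no match of 100 bases at 97% identity, and mt-Nd2 had it over 9.8%. The match of mt-Nd4 covered 63.6% of the gene with an identity that reached 100%. The copy of mt-Co1 spanned the gene with an identity of no more than 99.79%. The tables list 7 pseudogenes on chromosome 1, from 24650616 to 24655278, in a block of such copies, with vehicle means of 60.1 to 496 normalised counts. How reads that match a gene and its copy equally were counted is not given in the sources used here, and its part in these levels was not tested. The values of these 6 genes are therefore uncertain.

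**Figure D3:**
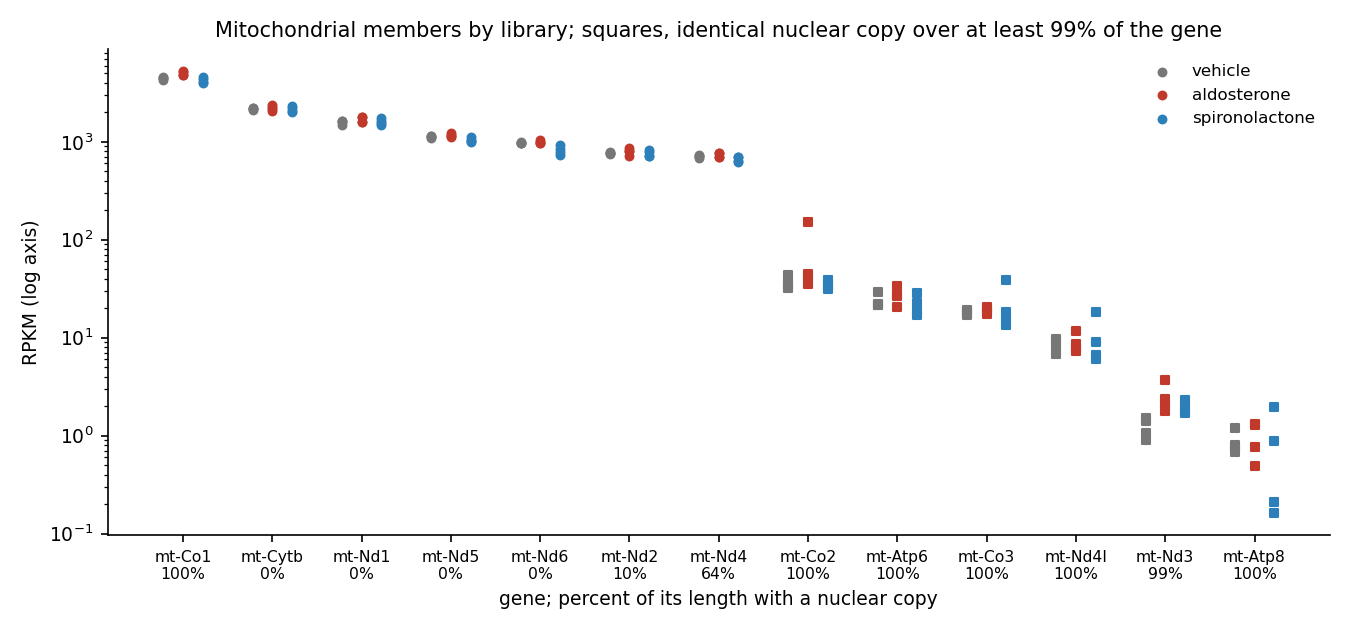
RPKM on a log axis of the 13 mitochondrial members in each library, coloured by treatment, with the percent of each gene's length that has a nuclear copy below its name. Squares mark the 6 genes with an identical copy over at least 99% of their length, which lie between 0.864 and 36.6 RPKM in the vehicle means, below the 7 others (708 to 4460).

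With aldosterone against vehicle the 13 mitochondrial members were all above 0, with a median of 0.11, and none passed. With the block 3 were higher, against 8.68% of all genes. mt-Co1, the catalytic core of complex IV, held 182806, 195665, 179369 and 192006 normalised counts with aldosterone and 172092, 163026, 161819 and 153097 with vehicle. The groups did not overlap, and the fold change was 0.21 (SE 0.0789, adjusted p = 0.126, and 0.00106 with the block). mt-Nd1, of the membrane arm of complex I, had 0.14 (0.254, and 0.0245 with the block). mt-Cytb, the core of complex III, had 0.066 (0.646), mt-Nd5 0.091 (0.468), mt-Nd4 0.088 (0.458), mt-Nd2 0.089 (0.466) and mt-Nd6 0.066 (0.555). Among the genes with an identical copy, mt-Co2 had 0.67 (0.217, and 0.021 with the block), but aldosterone library 2_1 held 2464 normalised counts where the others held 603, 749 and 677, and vehicle libraries 510.1 to 698. mt-Nd3 had 0.97 (0.109), on 15.5, 20.2, 17.5 and 30.6 counts against 12.6, 11.7, 7.32 and 8.59.

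The mitochondrial ribosomal RNAs mt-Rnr1 and mt-Rnr2, which are no members, rose with aldosterone by 0.54 (adjusted p = 0.000125) and 0.38 (0.000854), in libraries selected for poly(A).

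Spironolactone against vehicle asks whether the antagonist alone moved these genes. limma called 0 of 106 members in either direction, as it called 0% of all genes higher and 0% lower and 0% by the study's thresholds. Without adjustment 27 members were higher and 1 lower at limma p below 0.05. Over all 27598 genes these counts were 701 and 550, and over the 15226 genes with a mean of at least 10 they were 446 and 290. edgeR called 0 members (0% of all genes in each direction), and DESeq2 called 3 higher, Cox7c, Ndufb1 and Atp5k (against 0.104% of the genes it gave an adjusted p), and 0 lower (against 0.00866%). With the block the same 3 genes were higher (against 0.228%) and mt-Nd6 was lower (against 0.123%). With sample numbers averaged 0 members were called in either direction, as were 0 of all genes. The groups did not overlap in 8 members higher with spironolactone, against 1.39% of all genes, and in 1 lower, against 1.24%. Of the 93 nuclear members 89 were above 0, with a median of 0.15 (1.11-fold), beside 0.0026 over all genes.

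Cox7c, a small structural subunit of complex IV, had 1895, 2045, 1913 and 1796 normalised counts with spironolactone and 1546, 1512, 1463 and 1306 with vehicle. All 4 spironolactone libraries were higher, by 0.39 (SE 0.0637, limma adjusted p = 0.117, and 5.67e-06 with the block). Of its transcript 32.9% matches other loci. Ndufb1, an accessory subunit of complex I, had 408, 508, 503 and 427 against 341, 318, 343 and 301 (0.50, SE 0.0896, adjusted p = 0.196, and 0.000584 with the block). Atp5k, a dimer-stabilising subunit of the ATP synthase, had 359.9, 419, 375 and 331 against 295, 278, 272 and 239 (0.45, SE 0.0952, adjusted p = 0.387, and 0.00305 with the block). In the aldosterone libraries these 3 genes overlapped with vehicle or stood apart by less, at 0.20, 0.34 and 0.22.

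mt-Nd6 is the only subunit gene on the light strand of mitochondrial DNA, and it overlaps mt-Nd5 by 14 bases on the opposite strand. The strand setting of the read counting is not given in the sources used here. The strand from which the reads of mt-Nd6 come is therefore uncertain. In vehicle libraries mt-Nd6 stood at 974 RPKM and mt-Nd5 at 1124. mt-Nd6 held 8986, 11628, 10362 and 9510.0 normalised counts with spironolactone and 12380.0, 12063, 11719 and 11810.2 with vehicle, each spironolactone library lying below every vehicle library. The fold change was -0.25 (SE 0.0679, adjusted p = 0.897, and 0.00532 with the block). Against spironolactone (9183, 11862, 10569 and 9697) aldosterone libraries held 12731, 13587, 12329 and 12684. All 4 were higher, by 0.32 (SE 0.0715, adjusted p = 0.00709), and the call was lost when any library other than spironolactone 1_2 was left out.

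In aldosterone against spironolactone, agonist against antagonist, 3 members were higher (2.83%, against 4.93% of all genes) and 1 lower (against 3.96%). With the block 10 were higher (against 7.58%) and 2 lower (against 6.8%), and with sample numbers averaged 0 were called, of 364 and 184 genes. Of the 15300 genes with a mean of at least 10, 8.39% were higher without the block, and 1987 were higher and 1786 lower with it. None reached the study's thresholds, which 1.9% of all genes did. The groups did not overlap in 7 members, all higher, against 6.76% of all genes, and in 0 lower, against 6.22%. The members that passed were Cox4i2, Ndufa4l2 and mt-Nd6, described above, and Cox6b2, which was lower. Cox6b2 held 170.4, 200.02, 201 and 215 normalised counts with aldosterone and 270.2, 274, 261 and 213 with spironolactone, so that the lowest spironolactone library lay within the aldosterone range. The fold change was -0.37 (SE 0.11, adjusted p = 0.045), and the call was lost when any library other than that lowest library, 2_2, was left out.

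In this comparison the nuclear median was 0.021, with 55 of 93 above 0, and turned to -0.026 when libraries were scaled by total reads. The mitochondrial median was 0.20, with 12 of 13 above 0, and 6 mitochondrial members were higher with the block (against 7.58% of all genes). Over the 7 without an identical nuclear copy of at least 99% of the gene, the aldosterone medians were 0.19 against spironolactone and 0.089 against vehicle. That of spironolactone against vehicle was -0.069. These 7 include mt-Nd4 and mt-Co1, which have the partial or near-identical copies given above. mt-Nd4 (0.19, adjusted p = 0.0765), mt-Nd5 (0.20, 0.0828) and mt-Co1 (0.28, 0.0545) did not pass, and did with the block (0.0029, 0.00213 and 0.000271). The 3 comparisons share libraries, so these medians are not independent of each other.

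Counted as reads, the 13 mitochondrial members took 1.48 to 1.57% of each vehicle library, 1.56 to 1.72% with aldosterone and 1.39 to 1.58% with spironolactone. The 93 nuclear members took 0.551 to 0.625%, 0.603 to 0.687% and 0.627 to 0.699%, so the lowest spironolactone library lay just above the highest vehicle library. The ratio of mitochondrial to nuclear reads was 2.537, 2.526, 2.444 and 2.686 with vehicle, 2.582, 2.567, 2.525 and 2.505 with aldosterone, and 2.213, 2.260, 2.130 and 2.382 with spironolactone. Every spironolactone library had a lower ratio than every vehicle and aldosterone library, while vehicle and aldosterone overlapped. mt-Co1 alone took 0.657 to 0.716% of the reads of a vehicle library. No test is given for these sums, since the members were chosen with earlier results known.

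**Figure D4:**
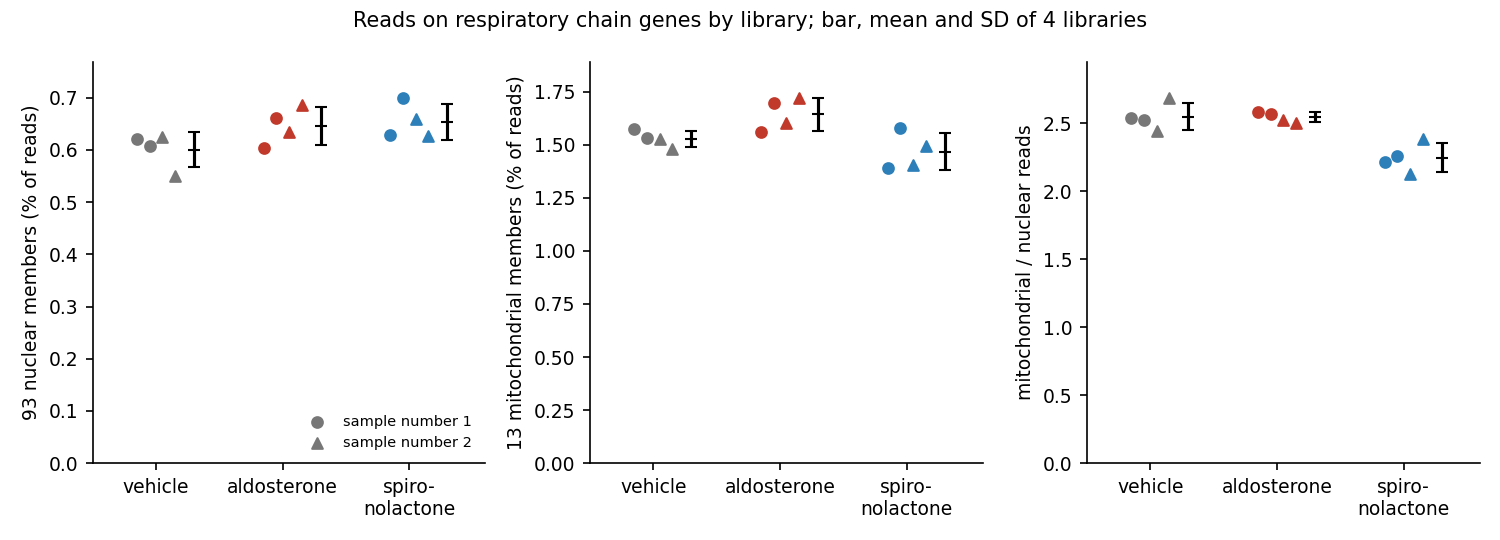
Reads on the 93 nuclear and the 13 mitochondrial members as a percent of all gene reads, and their ratio, in each library by treatment, with circles and triangles for sample numbers 1 and 2 and bars for the mean and SD of 4 libraries. The ratio was 2.13 to 2.38 with spironolactone and 2.44 to 2.69 with vehicle.

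Library by library, the median of the nuclear members relative to the vehicle mean ran from -0.15 to 0.077 in vehicle libraries and from 0.047 to 0.25 in aldosterone libraries, so the groups overlapped. The lowest was vehicle library 2_2, and without it the nuclear median fell from 0.16 to 0.10 for aldosterone and from 0.15 to 0.083 for spironolactone. Within sample number 1 the nuclear median was 0.080 for aldosterone against vehicle, with 75 of 93 above 0, and within sample number 2 it was 0.23, with 89. For spironolactone against vehicle it was 0.12 and 0.16, and for aldosterone against spironolactone -0.036 and 0.075, which differ in sign. The mitochondrial median kept its sign within both sample numbers, at 0.091 and 0.16 for aldosterone against vehicle, 0.16 and 0.29 for aldosterone against spironolactone, and -0.015 and -0.10 for spironolactone against vehicle.

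Transcript length moved with the fold changes. Nuclear members were short, with a median length of 1587 bases against 4134 over the genes of the same table whose mean reached 10. Over those 15245 genes Spearman's rho between length and log2 fold change was -0.15 for aldosterone against vehicle, and -0.24 for spironolactone against vehicle (15226 genes), but -0.033 for aldosterone against spironolactone (15300 genes). Genes are not independent replicates, and no p is given. After a correction for length the nuclear median was 0.097 for aldosterone against vehicle and 0.085 for spironolactone against vehicle, and the mitochondrial medians were 0.0155 and -0.12. With this correction 10 of the 106 members were called higher with aldosterone than with vehicle, or 24 with the block. Of all 27319 genes 1550 were called higher with the correction, or 2448 with the block. The fold changes of Cox4i2 and Ndufa4l2 still passed with the correction (adjusted p = 0.00421 and 0.00157). Besides Cox6a1, the calls of Cox7a2l (0.16, adjusted p = 0.0646), Cox7b (0.16, 0.12), Ndufa1 (0.18, 0.258), Ndufb11 (0.13, 0.2) and Ndufb3 (0.19, 0.211) were lost with this correction, and Atp5l was gained (0.37, 0.0456). The part of length-linked differences between libraries was not tested further.

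Genes around the chain were compared through lists of symbols. Of 53 carriers and assembly factors 3 rose with aldosterone against vehicle (5.66%, against 5.68% of all genes) and 1 fell (against 4.74%), with a median of 0.058. Uqcc2 (0.30, adjusted p = 0.033) and the oxidase assembly genes Surf1 (0.29, 0.035) and Cox14 (0.28, 0.0135) rose, and Coq10b, a coenzyme Q-binding protein, fell by 0.32 (0.0171). Of 28 factors of mitochondrial RNA and DNA, each with a mean of at least 10, 2 rose (7.14%). The share was the same 5.68% over all genes and 9.65% over genes with such a mean. Those that rose were the mitochondrial topoisomerase gene Top1mt (0.36, adjusted p = 0.0439) and Hsd17b10, a subunit of mitochondrial RNase P (0.28, 0.022). Tfam, which packages mitochondrial DNA and starts its transcription, had -0.099 (0.464). Of 15 biogenesis regulators 0 rose (against 5.68% of all genes) and 1 fell (against 4.74%). This was Gabpb1, a subunit of GA-binding protein, by 0.29 (0.0433). Ppargc1a (0.29, 0.634), Ppargc1b (0.33, 0.743), Nrf1 (-0.14, 0.248), Gabpa (-0.081, 0.579) and Esrra (0.10, 0.479), which encode coactivators and factors for the chain's promoters, did not pass.

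In the citric acid cycle list of 14 genes Idh2, mitochondrial NADP-dependent isocitrate dehydrogenase, rose by 0.47 (adjusted p = 0.00105), and of 16 glycolytic genes Pfkp, a phosphofructokinase, rose by 0.31 (0.00779). No other gene of either list passed, so the shares that rose were 7.14% and 6.25%. Of all genes 5.68% rose, and of those with a mean of at least 10, 9.65%. Among 10 membrane carriers Ucp2, an uncoupling protein family member, fell by 0.67 (0.0401). No other gene of that list passed, and 4.74% of all genes were called lower. Of 77 mitochondrial ribosomal protein genes 3 rose (3.9%, against 5.68% of all genes), with a median of 0.075, led by Mrps6 (0.50, 0.0026). Of 99 genes with cytosolic ribosomal protein symbols, a pattern that also takes ribosomal S6 kinases, 59 rose (59.6%, against 5.68% of all genes). Only 1, the kinase gene Rps6ka6, fell (against 4.74%), and the median was 0.26. This share and median lay above those of the 93 nuclear members (16.1% and 0.16). In aldosterone against spironolactone 2 of the cytosolic list rose (2.02%, against 4.93% of all genes) and 1 fell (against 3.96%). With spironolactone against vehicle 0 passed, as did 0% of all genes, at a median of 0.15.

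**Figure D5:**
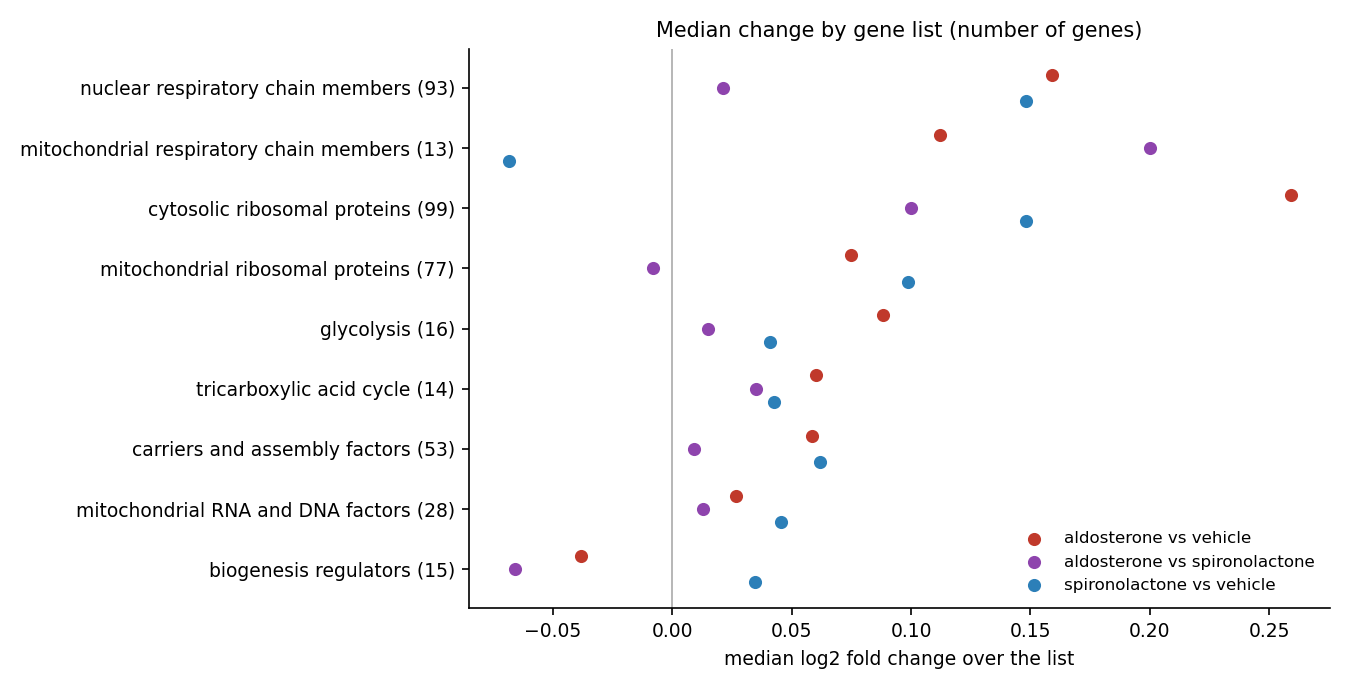
Median log2 fold change of the nuclear and mitochondrial members and of 7 related gene lists in the 3 comparisons, with the number of genes in brackets. The nuclear members had 0.16 with aldosterone and 0.15 with spironolactone against vehicle, while the mitochondrial members had 0.11 and -0.069.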

How the data were processed

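RNA of 12 fibroblast cultures was sequenced from poly(A) libraries. Per the submitters' processing notes, reads were aligned with HISAT2 2.0.5 and counted with featureCounts 1.5.0-p3 on mm39, while the study's methods name an older build. The deposited tables, 1 for each pair of treatments, hold a signal, gene counts that the authors divided by a size factor per library and normalised separately for each table. Each library is in 2 tables, so the comparisons are not independent. In 24 of 24 library columns all values were whole multiples of 1 read (tolerance 0.01 reads), and the reads recovered in this way gave depths of 19136923 to 30219185 per library and RPKM values. The columns of log2 fold changes and p-values that the authors deposited, from their own DESeq2 comparisons, were not used.

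Normalised counts were tested as log2(value + 1) with limma 3.58.1 (R 4.3.3) with an intensity trend, over every gene of a table without a filter, with Benjamini-Hochberg adjustment and calls at 0.05. Fold changes are on this scale and understate the change of low genes. The test was first run on simulated libraries that were independent of each other, so that run does not cover plates that share a mouse. P-values set the difference between groups against the spread between these libraries, which include plates that share a mouse. Alternatives were a pseudocount of 0.5, a mean of at least 10, other scalings, DESeq2 1.42.0 and edgeR 4.0.16 on recovered reads, blocks, averages, a correction for gene length (lowess, span 0.3) and leaving out each library. The sample number from the labels pairs libraries, since the deviations from group means correlated in all 24 pairs that share it (r 0.135 to 0.291), while those for the biological replicate number ranged from -0.312 to 0.291. Shared sequence was searched with blastn at 97% identity over 100 bases. Of 92 nuclear members searched, 24 had a match elsewhere, and the spans of 27 nuclear members overlap another gene. Values of members given without such a remark can therefore be uncertain as well. Shares of the Cox4i2 and Ndufa4l2 pairs, which hold the largest called changes, were compared by exact permutation tests.

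Members and lists were chosen with earlier results of these data known. Named were the mitochondrial members, the 2 largest and 2 smallest fold changes of each complex, the 10 largest called members, isoform families, the most abundant members and up to 4 called genes per related list. The other called members, those called only with the block, and Cox5b-ps were named after their values were seen. The values of 1 called member are not reported here.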

Additional observations from a re-analysis of the deposited data

Results flagged for a closer look

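In 12 of 186 groups of 4 libraries, 1 library stood apart by Dixon's test on RPKM, where the gap to the nearest library is divided by the range and compared with the 95% critical value for 4 values. Chance sets apart about 1 in 20 groups. Vehicle library 2_2 was the lowest for Atp5l (0.837), Ndufab1 (0.963), Sdhb (0.878) and Uqcrq (0.954), the last at 47.9 RPKM where the others had 60.8 to 61.4. Spironolactone library 2_2 was the lowest for Cox6b2 (0.877), library 2_1 the lowest for Sdha (0.841), and library 1_2 the highest for Sdhb (0.926). Aldosterone library 1_2 was the highest for Cox7a2 (0.958), at 51.5 RPKM against 43.7 to 44.0. Among mitochondrial members, aldosterone library 2_1 was the highest for mt-Co2 (0.924), at 150.2 RPKM against 35.7 to 44.4, and vehicle library 2_1 for mt-Atp6 (0.928). Cox8b gave a ratio of 1 in the vehicle and in the spironolactone group, since 3 of 4 libraries were at 0.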

How the results depend on the processing

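With aldosterone against vehicle the 15 members higher became 8 when libraries were scaled by total reads, 37 with the replicate block on sample number, 24 with that block and the length correction, 0 with sample numbers averaged, and 4 to 13 with a library left out. Over all genes the 1553 higher became 1288 by total reads, 2371 with the block, 2448 with block and length correction, and 508 averaged. Counts over all genes with a library left out are not given here. The mitochondrial median of 0.112 became 0.0155 after the length correction, with or without the block. With aldosterone against spironolactone the 3 members higher became 7 by DESeq2, 5 by edgeR, 10 with the block, 5 with the biological replicate number as block, 11 with block and length correction, 0 averaged, and 1 to 6 with a library left out. The 1 lower became 2, 0, 3 and 0 with the block, the biological replicate block, block and length correction, and averaging, and 0 to 1 with a library left out. Over all genes the 1361 higher became 1508 by DESeq2, 2095 with the block and 1286 with the biological replicate block. They became 1411 by edgeR, of 15343 genes it tested, 2279 with block and length correction, and 364 averaged. The 1093 lower of all genes became 1879 with the block, 1022 with the biological replicate block, 2016 with block and length correction, and 184 averaged. With spironolactone against vehicle 0 higher became 3 by DESeq2, 3 with the block and 4 with block and length correction, and 0 lower became 1 and 3 with the last pair of fits. Over all genes the 0 higher became 12, 63 and 55 in these fits, and the 0 lower became 34 and 45 with the last pair. No called member reversed its sign, while the nuclear median of 0.021 in aldosterone against spironolactone turned to -0.026 with total-read scaling. Scaling by total reads turned the calls over all genes in aldosterone against spironolactone from 1361 higher and 1093 lower to 1122 and 1502. Only 2 mice and, per group, 4 libraries limit the precision, and the cause of these shifts was not tested.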
